A study of Homo sapiens and Mus musculus with 36 samples.

Results

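The 8 genes described here, HNF4A, FOXA1, FOXA2, FOXA3, CEBPA, PROX1, ONECUT1 and A1CF, are a list of hepatocyte regulators, each followed over every probe set that carried its name alone. HepaRG cells gave 14 probe sets for 7 of them, among 19775 human genes measured, and mouse liver gave 14 probe sets for all 8, among 18193 mouse genes. HNF4A was not analysed here in HepaRG cells. The data were Affymetrix expression arrays of 24 HepaRG cultures and 12 mouse livers, given as RMA log2 levels, in which a difference of 1 is a 2-fold change in RNA. HepaRG is a human liver tumour line whose cells can mature towards hepatocytes and bile duct cells. These cells were thawed after differentiation, treated from day 7 after seeding and exposed for 72 h, as 8 groups of 3 cultures, all of this single cell line. The groups were vehicle control, a 50 times concentrated bile acid mixture (the mix), atazanavir at 60 µM, cyclosporin A at 20 µM, nefazodone at 30 µM, and each of these drugs at the same dose together with the mix. The mice were of the Sv129 strain. In 6 mice the common bile duct had been ligated, in 6 sham-operated mice the duct had been exposed without tying it, and the labels place both groups 6 weeks after surgery.

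Hepatocyte identity is held by a small network of transcription factors that bind each other's control regions and those of liver genes. HNF4A is a nuclear receptor that activates many hepatocyte genes, the FOXA proteins are pioneer factors that open chromatin, CEBPA is a leucine zipper activator of metabolic genes, PROX1 is a homeobox factor that also represses nuclear receptor activity, and ONECUT1 is a homeobox factor of hepatocytes and bile duct cells. A1CF is not a transcription factor: it binds RNA and guides the editing of APOB messenger RNA by the deaminase APOBEC1.

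Because 6 of the 7 genes were lower together in several HepaRG groups, the 250 bases before the start of the gene are shown for A1CF, FOXA1 and FOXA3, from RefSeq (GRCh38.p14). Of the 8 genes, 6 had an entry in the promoter table, and these 3 were chosen after the matches were seen, A1CF and FOXA1 for holding a FOXA word and FOXA3 for holding none. The A1CF stretch is chr10:50885628-50885877 on the minus strand, the FOXA1 stretch is chr14:37595250-37595499 on the minus strand, and the FOXA3 stretch is chr19:45864076-45864325 on the plus strand. Capitals mark matches, on either strand, to the FOXA words TNTTTAC or TGTTTGC.
A1CF: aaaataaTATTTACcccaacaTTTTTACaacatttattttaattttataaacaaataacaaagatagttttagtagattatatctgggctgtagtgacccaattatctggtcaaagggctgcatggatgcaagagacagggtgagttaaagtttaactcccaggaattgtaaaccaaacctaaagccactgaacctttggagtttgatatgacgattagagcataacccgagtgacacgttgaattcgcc
FOXA1: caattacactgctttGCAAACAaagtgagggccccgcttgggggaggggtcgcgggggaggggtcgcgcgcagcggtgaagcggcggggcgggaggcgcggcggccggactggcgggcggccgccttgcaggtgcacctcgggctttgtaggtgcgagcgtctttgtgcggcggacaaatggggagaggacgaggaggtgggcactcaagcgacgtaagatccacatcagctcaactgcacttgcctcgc
FOXA3: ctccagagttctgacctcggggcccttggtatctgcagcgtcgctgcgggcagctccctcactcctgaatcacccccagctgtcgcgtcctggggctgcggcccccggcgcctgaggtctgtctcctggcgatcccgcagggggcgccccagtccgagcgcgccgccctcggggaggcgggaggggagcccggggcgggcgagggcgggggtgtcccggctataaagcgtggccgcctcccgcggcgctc
The A1CF stretch, with 35.6% G and C, held 2 matches to TNTTTAC, a word found in 9.58% of 35116 promoter stretches of the same length. The FOXA1 stretch, with 67.2% G and C, held 1 match to TGTTTGC, found in 3.23% of them, and the FOXA3 stretch, with 75.2% G and C, held none of the 6 words searched. The other words were CAAAGTNCA for HNF4 (0.94% of stretches), GTTAAT for HNF1 (6.23%), ATNGATT for ONECUT (5.38%) and TTGCNNAA for CEBP (9.05%). No match overlapped a match to another word, and a match is a run of letters, not a measured binding site. HNF4A has 2 stretches in the table, of which one held 1 match to ATNGATT and the other 2 matches to GTTAAT, while those of CEBPA and ONECUT1 held none.

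Array medians lay between 4.24 and 4.38 for HepaRG and between 5.38 and 5.49 for mouse liver. Over the probe sets with a single gene symbol, arrays of a group correlated at 0.990 to 0.997 and at 0.983 to 0.996. Levels below 4.27 in HepaRG and 5.40 in mouse liver, the range of the dimmest 1 in 3 genes by mean, are called the dim range. Of 10 hepatocyte markers none was that dim in control HepaRG, and none of the 8 measured was so in either group of mice. Of 10 bile duct markers, EPCAM, PROM1, CFTR and KRT23 were that dim in control HepaRG. Of the mouse arrays, sham 2 had a mean level of 9.07 over 11 intestinal markers, against a median of 5.66 in sham liver, and ligated 1 had a mean of 8.33 over 7 neutrophil markers, against a median of 5.99 in ligated liver. In bulk RNA, fewer cells of a type and less RNA per cell cannot be told apart.

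**Figure D1:**
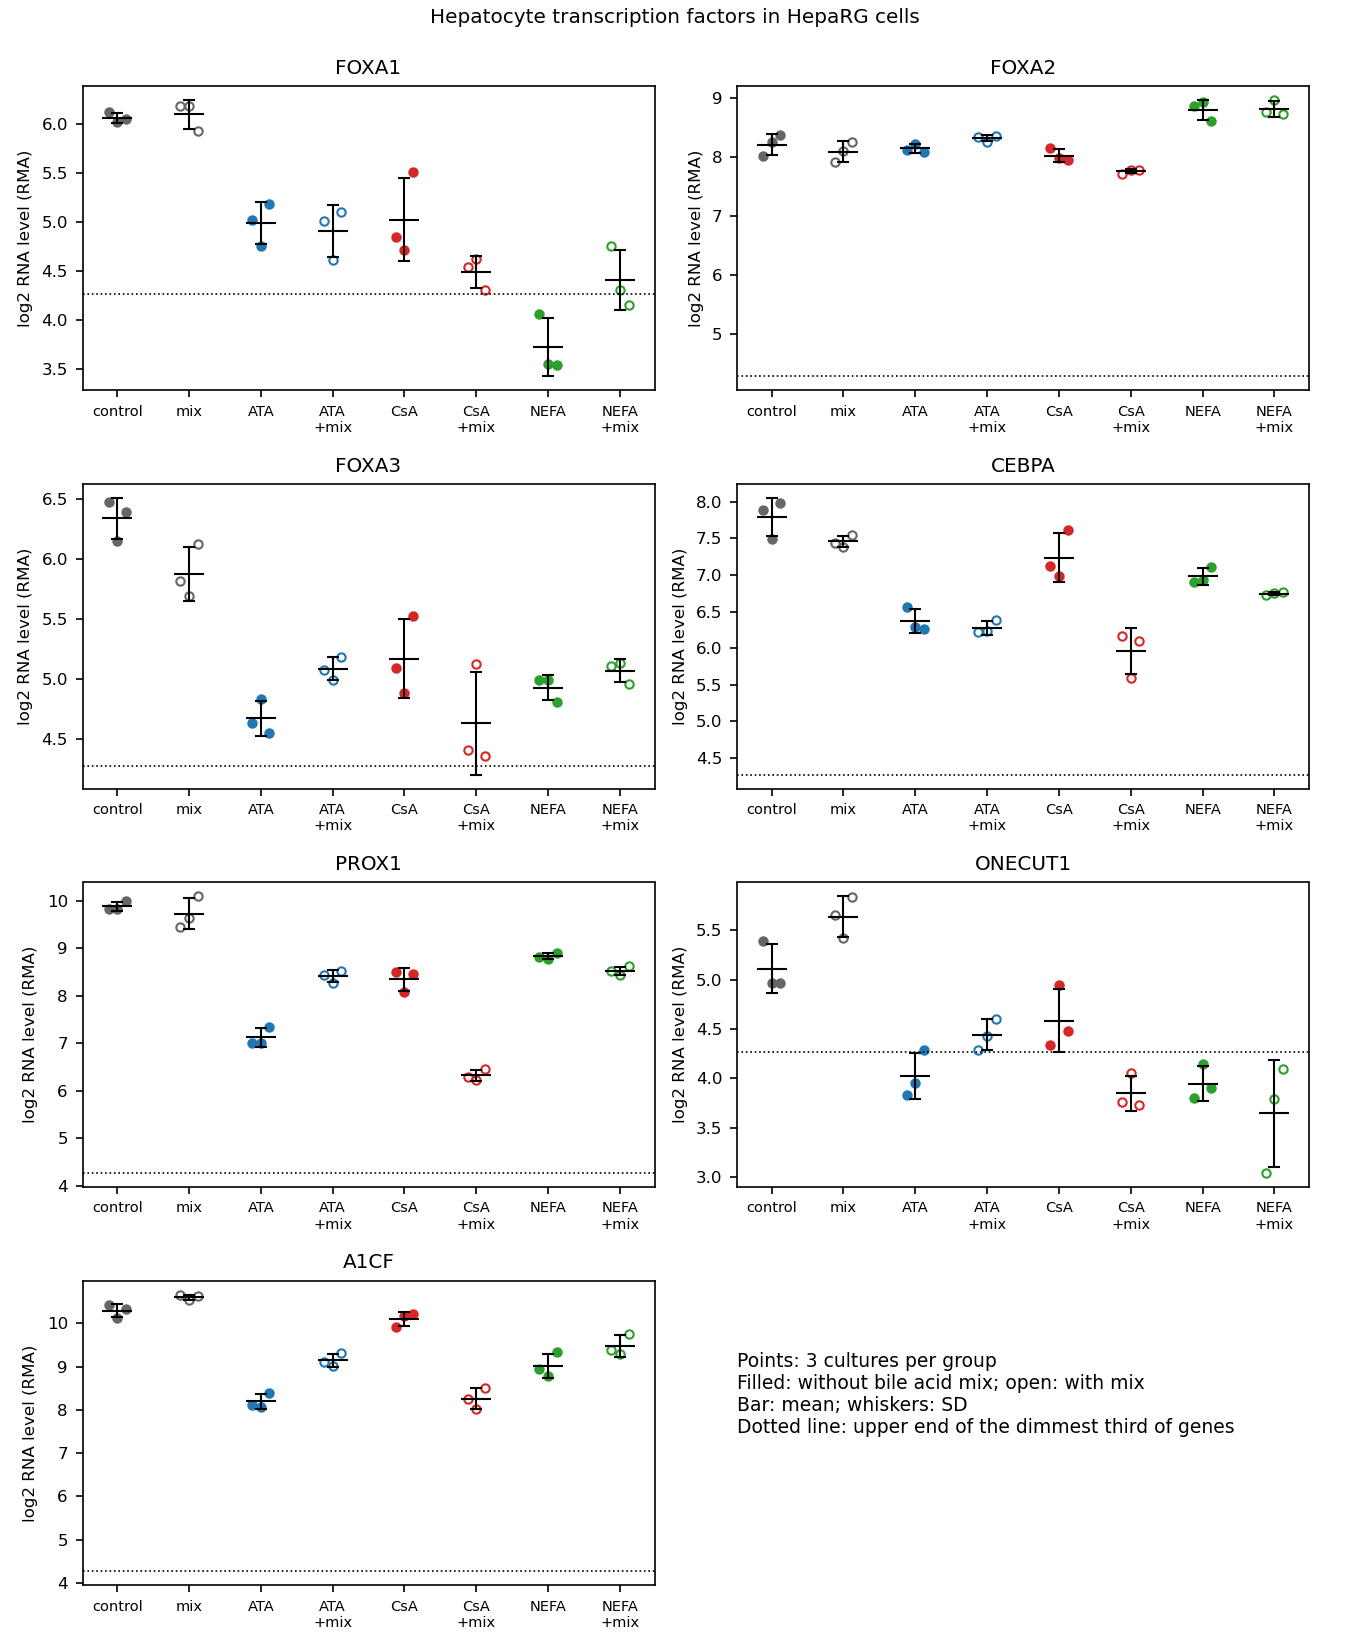
RMA log2 level (vertical axis) of the main probe set of each gene in 8 HepaRG groups (horizontal axis), with points for 3 cultures a group, bars for means, whiskers for SD and a dotted line at 4.27, the upper end of the dim range. PROX1 and A1CF lie far below control with atazanavir (means 7.12 and 8.20) and with cyclosporin A plus mix (6.33 and 8.26), while FOXA2 stays between 7.72 and 8.97 in every culture.

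All 3 drugs without the mix lowered FOXA1, FOXA3, CEBPA and PROX1 in HepaRG cells, and none lowered FOXA2 past the threshold. Atazanavir lowered 6 of the 7 genes, with a median log2 change over the 7 of -1.42 against 0.02 over all genes, where 12.5% of all genes were called lower and 21.2% higher. Cyclosporin A lowered 4 of 7, with a median of -0.55 against 0.04 over all genes, of which 17.9% were called lower and 21.4% higher. Nefazodone lowered 6 of 7 and raised FOXA2, with a median of -1.16 against 0.01 over all genes, of which 20.1% were called lower and 24.5% higher. A gene was called at an adjusted p under 0.05 in limma, over all probe sets, and the 3 comparisons share the same control cultures.

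PROX1, the homeobox factor, had the largest fall of the 7 genes with atazanavir. Its main probe set stood at 9.83, 9.83 and 9.98 in control, at 7.00, 7.01 and 7.35 with atazanavir, at 8.50, 8.07 and 8.45 with cyclosporin A, and at 8.81, 8.78 and 8.91 with nefazodone. No culture of the 3 drugs reached the lowest control culture. The log2 changes were -2.76 with atazanavir (6.76-fold lower, SE 0.14, adjusted p = 4.08e-12), -1.54 with cyclosporin A (2.90-fold lower, adjusted p = 6.3e-09) and -1.05 with nefazodone (2.07-fold lower, adjusted p = 9.51e-07). Ordered by mean over all 8 groups, PROX1 was highest in control (9.88 ± 0.09, SD, n = 3) and with the mix alone (9.72 ± 0.33), then followed nefazodone (8.83 ± 0.07), nefazodone plus mix (8.53 ± 0.09), atazanavir plus mix (8.41 ± 0.13), cyclosporin A (8.34 ± 0.23), atazanavir (7.12 ± 0.20) and cyclosporin A plus mix (6.33 ± 0.11). Of neighbours in that order, control and mix overlapped, as did nefazodone plus mix with atazanavir plus mix, and the latter with cyclosporin A alone. The other neighbours did not overlap.

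A1CF, the RNA-binding protein, fell with atazanavir and nefazodone. Its main probe set stood at 10.42, 10.12 and 10.34 in control, at 8.13, 8.07 and 8.40 with atazanavir, at 9.92, 10.17 and 10.22 with cyclosporin A, and at 8.96, 8.79 and 9.33 with nefazodone. Cyclosporin A overlapped control and the other 2 drugs lay wholly below it. The log2 change was -2.10 with atazanavir (4.28-fold lower, SE 0.15, adjusted p = 5.11e-10), -0.19 with cyclosporin A (95% interval -0.50 to 0.12, adjusted p = 0.369) and -1.27 with nefazodone (2.41-fold lower, adjusted p = 2.08e-07). The second A1CF probe set, 241547_at, was lower with all 3 drugs, cyclosporin A included (log2 change -0.76, SE 0.25, adjusted p = 0.0178), so the 2 probe sets disagree on whether cyclosporin A passed the threshold. By mean over the 8 groups A1CF ran from the mix alone (10.61 ± 0.06, SD, n = 3) over control (10.29 ± 0.16), cyclosporin A (10.11 ± 0.16), nefazodone plus mix (9.48 ± 0.25), atazanavir plus mix (9.15 ± 0.16), nefazodone (9.03 ± 0.28) and cyclosporin A plus mix (8.26 ± 0.24) to atazanavir (8.20 ± 0.18). Overlap between neighbours was seen for control with cyclosporin A, for nefazodone plus mix with atazanavir plus mix, for the latter with nefazodone, and for the lowest pair.

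The 3 FOXA genes, which encode related forkhead pioneer factors, did not move as one. FOXA1 stood at 6.12, 6.02 and 6.06 in control, at 5.03, 4.76 and 5.19 with atazanavir, at 4.85, 4.72 and 5.51 with cyclosporin A, and at 4.07, 3.56 and 3.55 with nefazodone. All drug cultures lay below control, and those of nefazodone lay below all cultures of the other drugs. The log2 change was -2.34 with nefazodone (SE 0.19, adjusted p = 5.27e-10), -1.08 with atazanavir (adjusted p = 0.000109) and -1.04 with cyclosporin A (adjusted p = 0.00012). The mean of 3.72 with nefazodone was in the dim range, where RMA compresses differences, so that no fold is given for it. In order of mean, FOXA1 ran from the mix (6.10 ± 0.15, SD, n = 3) and control (6.07 ± 0.05) over cyclosporin A (5.03 ± 0.42), atazanavir (4.99 ± 0.22), atazanavir plus mix (4.91 ± 0.26), cyclosporin A plus mix (4.49 ± 0.16) and nefazodone plus mix (4.41 ± 0.31) to nefazodone (3.72 ± 0.30). Control against cyclosporin A and the lowest pair were the only neighbours that did not overlap.

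FOXA3 stood at 6.47, 6.15 and 6.40 in control, at 4.63, 4.83 and 4.55 with atazanavir, at 5.09, 4.88 and 5.53 with cyclosporin A, and at 4.99, 4.98 and 4.80 with nefazodone. The 3 drug groups lay below control in every culture. The log2 changes were -1.67 (3.18-fold lower, SE 0.17, adjusted p = 1e-07), -1.17 (2.26-fold lower, adjusted p = 7.87e-06) and -1.41 (2.67-fold lower, adjusted p = 3.06e-07), in that order of drugs. FOXA3 means ran from control (6.34 ± 0.17, SD, n = 3) over the mix (5.88 ± 0.22), cyclosporin A (5.17 ± 0.33), atazanavir plus mix (5.08 ± 0.10), nefazodone plus mix (5.07 ± 0.09), nefazodone (4.93 ± 0.11) and atazanavir (4.67 ± 0.15) to cyclosporin A plus mix (4.63 ± 0.43). From cyclosporin A downwards each neighbour overlapped the next, and above it none did.

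FOXA2 was the exception among the 7 genes. It stood at 8.01, 8.25 and 8.37 in control, at 8.12, 8.23 and 8.09 with atazanavir, at 8.15, 7.98 and 7.95 with cyclosporin A, and at 8.87, 8.93 and 8.61 with nefazodone. Atazanavir and cyclosporin A overlapped control, and nefazodone lay above it. FOXA2 rose with nefazodone by 0.59 on the log2 scale (1.51-fold, SE 0.11, adjusted p = 7.25e-05), and its second probe set, 210103_s_at, rose by 0.69 (adjusted p = 6.07e-07). The changes with atazanavir (-0.06, 95% interval -0.29 to 0.16, adjusted p = 0.735) and cyclosporin A (-0.19, 95% interval -0.41 to 0.04, adjusted p = 0.197) did not pass the threshold. FOXA2 means ran from nefazodone plus mix (8.82 ± 0.13, SD, n = 3) and nefazodone (8.80 ± 0.17) over atazanavir plus mix (8.32 ± 0.05), control (8.21 ± 0.18), atazanavir (8.15 ± 0.07), the mix (8.09 ± 0.18) and cyclosporin A (8.03 ± 0.11) to cyclosporin A plus mix (7.76 ± 0.04). The first pair overlapped, the 5 groups from atazanavir plus mix to cyclosporin A overlapped from neighbour to neighbour, and cyclosporin A plus mix lay below them.

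CEBPA, the leucine zipper activator, fell with all 3 drugs. It stood at 7.89, 7.49 and 7.98 in control, at 6.56, 6.28 and 6.26 with atazanavir, at 7.12, 6.98 and 7.61 with cyclosporin A, and at 6.90, 6.93 and 7.11 with nefazodone. Only cyclosporin A, through culture 3, overlapped control. The log2 changes were -1.42 with atazanavir (2.67-fold lower, SE 0.15, adjusted p = 2.38e-07), -0.55 with cyclosporin A (1.46-fold lower, adjusted p = 0.00709) and -0.81 with nefazodone (1.75-fold lower, adjusted p = 0.000139). Without cyclosporin A culture 2, CEBPA changed by -0.42 with that drug and missed the threshold (adjusted p = 0.0552). The same call was also missed with only the groups compared in the fit (-0.55, adjusted p = 0.0622). CEBPA means ran from control (7.79 ± 0.26, SD, n = 3) over the mix (7.46 ± 0.08), cyclosporin A (7.24 ± 0.33), nefazodone (6.98 ± 0.12), nefazodone plus mix (6.75 ± 0.02), atazanavir (6.37 ± 0.17) and atazanavir plus mix (6.28 ± 0.09) to cyclosporin A plus mix (5.96 ± 0.31). The 4 highest groups overlapped from neighbour to neighbour, as did atazanavir with and without mix.

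ONECUT1, the homeobox factor shared with bile duct cells, fell with atazanavir and nefazodone. Its only probe set stood at 5.40, 4.97 and 4.97 in control, at 3.84, 3.95 and 4.29 with atazanavir, at 4.34, 4.95 and 4.48 with cyclosporin A, and at 3.80, 4.14 and 3.91 with nefazodone. The 3 drug groups lay below control, atazanavir and nefazodone with means in the dim range. The log2 changes were -1.09 with atazanavir (SE 0.21, adjusted p = 0.000269), -1.16 with nefazodone (adjusted p = 6.06e-05) and -0.53 with cyclosporin A (95% interval -0.96 to -0.10, adjusted p = 0.054). The last value passed without cyclosporin A culture 2 (-0.71, adjusted p = 0.0167), with quantile normalization (0.0457) and with median centring (0.0385). It also passed with the dimmest 1 in 3 probe sets left out (0.0438), with eBayes with trend and robust (0.0494) and with the replicate block (0.0441). ONECUT1 means ran from the mix (5.64 ± 0.21, SD, n = 3) over control (5.11 ± 0.25), cyclosporin A (4.59 ± 0.32), atazanavir plus mix (4.44 ± 0.16), atazanavir (4.02 ± 0.23), nefazodone (3.95 ± 0.18) and cyclosporin A plus mix (3.85 ± 0.18) to nefazodone plus mix (3.64 ± 0.54). The mix lay above control and control above cyclosporin A without overlap, and from cyclosporin A downwards each group overlapped the next.

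**Figure D2:**
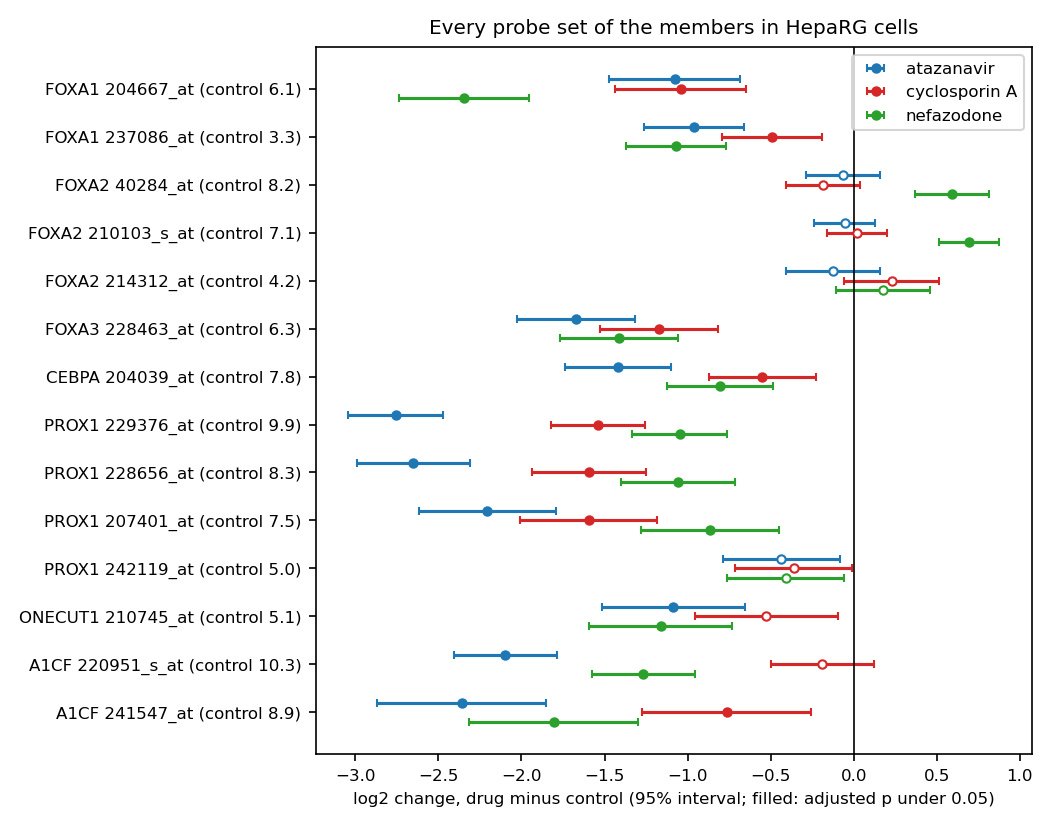
Log2 change of each drug against control (horizontal axis, with 95% intervals) for each of the 14 HepaRG probe sets (vertical axis, with the mean control level), filled where the adjusted p was under 0.05. The 3 brighter PROX1 probe sets lie between -2.76 and -0.86 for the 3 drugs, the dimmer 242119_at lies between -0.44 and -0.36 with no filled point, and 2 of the 3 FOXA2 probe sets are filled to the right of 0 for nefazodone.

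Of all 14 probe sets, 10 were lower with atazanavir, where 11.2% of all probe sets were called lower and 17.4% higher. With cyclosporin A 8 were lower (15.6% of all lower, 19.0% higher), and with nefazodone 10 were lower and 2, both of FOXA2, higher (17.8% of all lower, 23.0% higher). The probe sets of PROX1 agreed except for 242119_at, whose control mean of 4.98 was the lowest of the 4 and which passed the threshold with none of the drugs alone. The dim FOXA1 probe set 237086_at, at 3.33 in control, was also lower with all 3 drugs. The remaining FOXA2 probe set, 214312_at, at 4.24 in control, was called in no comparison.

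Most of the other liver factors and of the textbook target genes listed for these factors were also lower with each drug. Of all genes, 12.5%, 17.9% and 20.1% were called lower and 21.2%, 21.4% and 24.5% higher with atazanavir, cyclosporin A and nefazodone. Whether the targets followed the factors was not tested. Of 25 further liver-enriched factors measured, atazanavir lowered 14 and raised 4, cyclosporin A lowered 16 and raised 1, and nefazodone lowered 16 and raised 3, with medians of -0.49, -0.50 and -0.62. With atazanavir the falls were led by HLF (-2.12), a clock-controlled leucine zipper factor, the xenobiotic receptor NR1I3 (-1.72), the homeobox factor HHEX (-1.62) and KLF15 (-1.57). With nefazodone they were led by the orphan receptors ESRRG (-3.00) and NR5A2 (-1.76), by NR2F1 (-1.74) and by HHEX (-1.54), and with cyclosporin A by ESRRG (-1.51), NR1I3 (-1.13), NFIB (-1.11) and NR2F1 (-0.92). Of 23 textbook target genes of the factors, atazanavir lowered 20, cyclosporin A 18 and nefazodone 18, with medians of -3.13, -1.87 and -1.82. CYP7A1, the rate-limiting enzyme of bile acid synthesis, changed by -7.69, -4.89 and -8.00. All 23 targets lay above the dim range in each control culture. With atazanavir 16 to 19 did so, with cyclosporin A 19 to 21 and with nefazodone 17 to 18. Changes that end in the dim range are compressed. IGFBP1, a stress- and insulin-regulated secreted protein, was the 1 target that rose with each drug, by 3.58, 2.31 and 4.45, and is named for that reason.

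The hepatocyte markers, 6 of which are also among the targets, moved with the factors. All 10 were lower with atazanavir and nefazodone and 9 with cyclosporin A, APOB being the one that missed the threshold there. Their summed level, as log2, ran from 16.40 to 16.58 in control, from 14.80 to 15.15 with atazanavir, from 15.38 to 15.83 with cyclosporin A and from 15.14 to 15.48 with nefazodone. ASGR1 was in the dim range with atazanavir, and none of the 10 was so with the other drugs alone. Of the 10 bile duct markers, 2 fell with atazanavir, and 4 rose and 2 fell with cyclosporin A and likewise with nefazodone. Their summed level was 13.03 to 13.18 in control, 12.32 to 12.46 with atazanavir, 11.90 to 12.13 with cyclosporin A and 12.19 to 12.49 with nefazodone. A sum adds levels before the log is taken, so the brightest genes weigh most in it. The mean log2 level of the same markers was 6.16 to 6.25, 6.05 to 6.12, 6.14 to 6.31 and 6.29 to 6.32 in that order. By that mean, nefazodone lay above control and cyclosporin A overlapped it. Of 8 stellate cell and fibroblast markers, 2 fell and 1 rose with atazanavir, 3 fell with cyclosporin A, and 3 fell and 1 rose with nefazodone. Their summed level was 11.86 to 12.24 in control and 10.33 to 11.12, 8.91 to 9.54 and 9.25 to 9.71 with the drugs in that order. Of 6 neutrophil markers, of which CXCR2, MMP8 and LTF were in the dim range in control, 2 fell with each drug and 1 rose with cyclosporin A, with a summed level of 10.11 to 10.42 in control and 8.18 to 9.04, 7.10 to 7.70 and 6.62 to 6.92 with the drugs. Of 7 sinusoidal endothelial markers, 5 of them in the dim range in control, 1, 2 and 2 fell, with a summed level of 9.73 to 10.11 in control and 8.07 to 8.30, 7.36 to 8.06 and 6.75 to 6.90 with the drugs. The GAPDH 3′ minus 5′ difference, a measure of RNA quality, was 0.53 ± 0.05 (SD, n = 3) in control and 0.59, 0.51 and 0.63 with the drugs. All cultures were of a single cell line, so the stellate, neutrophil and endothelial lists name genes and do not show such cells. The part of the markers and of RNA quality in the falls of the 7 genes was not tested.

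The mix alone moved none of the 7 genes past the threshold, with a median log2 change of -0.12 against 0.01 over all genes. In limma, 5.87% of all genes were called higher and 2.85% lower with the mix, by adjusted p. By unadjusted p, 4 of the 7 genes were under 0.05. The share of all genes under that unadjusted threshold is not given here, so this count is only a description. FOXA3 stood at 5.82, 5.69 and 6.12, below all control cultures (-0.46, SE 0.17, adjusted p = 0.113). ONECUT1, at 5.66, 5.42 and 5.83, lay above all control cultures (0.53, SE 0.21, adjusted p = 0.141), and so did A1CF, at 10.65, 10.54 and 10.63 (0.31, SE 0.15, adjusted p = 0.247). CEBPA changed by -0.33 (adjusted p = 0.235), PROX1 by -0.16 (adjusted p = 0.611), FOXA2 by -0.12 (adjusted p = 0.613) and FOXA1 by 0.03 (adjusted p = 0.955), each overlapping control. Among the 25 other liver factors TBX3 (1.45), GATA6 (1.35) and NFIC (0.37) rose and NR1I3 (-0.86) fell. With cultures of the same number paired, 8 rather than 4 of these factors and 12 rather than 7 of the 23 targets passed, and still none of the 7 genes. CYP7A1 changed by -7.77 with the mix, and 4 of the 10 hepatocyte markers fell.

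Added to a drug, the mix moved PROX1 and A1CF up on atazanavir and down on cyclosporin A. On top of atazanavir it raised 2 of the 7, PROX1 and A1CF, and lowered none, where 8.32% of all genes rose and 9.09% fell. On top of cyclosporin A it lowered 6 of 7 and raised none, where 17.7% of all genes fell and 17.5% rose. On top of nefazodone it raised FOXA1 and lowered none, where 6.73% of all genes rose and 7.16% fell. The medians over the 7 genes were 0.41, -0.74 and 0.02, against -0.01 over all genes each time.

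PROX1 showed the widest contrast. With atazanavir plus mix it stood at 8.43, 8.27 and 8.52, above all cultures with atazanavir alone, a rise of 1.29 (2.44-fold, SE 0.14, adjusted p = 1.11e-06). With cyclosporin A plus mix it stood at 6.30, 6.23 and 6.45, below all cultures with cyclosporin A alone, a fall with a log2 change of -2.01 (4.04-fold lower, adjusted p = 2.8e-10). With nefazodone plus mix it stood at 8.52, 8.45 and 8.62, a change of -0.30 that missed the threshold (adjusted p = 0.187) although the groups did not overlap. Against control, cyclosporin A plus mix left PROX1 11.7-fold lower (log2 change -3.55, adjusted p = 2.25e-15), the largest fall among the 7 genes in any group.

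A1CF, like PROX1, rose with the mix on atazanavir and fell with it on cyclosporin A. It stood at 9.11, 9.01 and 9.32 with atazanavir plus mix (0.95 above atazanavir, SE 0.15, adjusted p = 0.000109) and at 8.25, 8.02 and 8.51 with cyclosporin A plus mix (-1.84 against cyclosporin A, 3.59-fold lower, adjusted p = 4.11e-09). With nefazodone plus mix it stood at 9.39, 9.28 and 9.76, a difference of 0.45 that missed the threshold (adjusted p = 0.0549) and passed it without nefazodone culture 3 (0.60, adjusted p = 0.0188) or without culture 2 of nefazodone plus mix (0.55, adjusted p = 0.0426). The second A1CF probe set, 241547_at, did not show this difference, with a mean of 7.06 both with nefazodone and with nefazodone plus mix. With cyclosporin A alone the main A1CF probe set overlapped control, with culture 1 below all control cultures, and with the mix it lay 4.09-fold below control (log2 change -2.03, adjusted p = 7.21e-11).

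CEBPA stood at 6.17, 5.60 and 6.10 with cyclosporin A plus mix, below all cultures with cyclosporin A alone (-1.28, 2.43-fold lower, SE 0.15, adjusted p = 1.08e-06). With atazanavir plus mix, at 6.22, 6.23 and 6.38, it overlapped atazanavir alone (-0.09, adjusted p = 0.785), and with nefazodone plus mix, at 6.73, 6.75 and 6.76, it lay below nefazodone alone without passing the threshold (-0.24, adjusted p = 0.431). ONECUT1 fell with the mix on cyclosporin A, to 3.76, 4.05 and 3.73 (-0.74, SE 0.21, adjusted p = 0.00817), which missed the threshold without cyclosporin A culture 2 (-0.56, adjusted p = 0.0614). Its changes on atazanavir (0.42, adjusted p = 0.209) and nefazodone (-0.30, adjusted p = 0.455) did not pass. The means of ONECUT1 with cyclosporin A plus mix and with nefazodone plus mix were in the dim range.

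On cyclosporin A the changes of the FOXA genes were the smallest of the 7. FOXA1 fell with the mix on cyclosporin A, to 4.55, 4.62 and 4.31 (-0.54, SE 0.19, adjusted p = 0.0344), and FOXA3 fell to 4.40, 5.12 and 4.36 (-0.54, SE 0.17, adjusted p = 0.0187), where 1 culture overlapped cyclosporin A alone. The FOXA1 fall missed the threshold without cyclosporin A culture 3 (-0.29, adjusted p = 0.265) or without culture 1 (-0.56, adjusted p = 0.0576) or 3 (-0.44, adjusted p = 0.133) of cyclosporin A plus mix. The FOXA3 fall missed it without the same cultures (-0.36, adjusted p = 0.147, then -0.43, adjusted p = 0.101, and -0.40, adjusted p = 0.114). Both also missed it with only the groups compared in the fit (adjusted p = 0.101 for FOXA1 and 0.15 for FOXA3), and FOXA1 missed it with median centring (adjusted p = 0.0516). FOXA1 rose with the mix on nefazodone, from below the dim bound to 4.75, 4.31 and 4.16 (0.68, SE 0.19, adjusted p = 0.0188). That rise missed the threshold without nefazodone culture 2 or 3 (0.60 each, adjusted p = 0.0799 and 0.112) or without culture 1 of nefazodone plus mix (0.51, adjusted p = 0.136). FOXA2 stood at 7.72, 7.78 and 7.78 with cyclosporin A plus mix, below all cultures with cyclosporin A alone, without passing the threshold (-0.27, SE 0.11, adjusted p = 0.0631). It passed with quantile normalization (adjusted p = 0.0243), with the dimmest 1 in 3 probe sets left out (0.044) and with eBayes with trend and robust (0.0417). Its second probe set, 210103_s_at, fell there (-0.41, adjusted p = 0.000785) and rose with the mix on atazanavir (0.32, adjusted p = 0.0164). On atazanavir the main probe sets of FOXA1 (-0.08, adjusted p = 0.853), FOXA2 (0.17, adjusted p = 0.334) and FOXA3 (0.41, adjusted p = 0.12) did not pass, and on nefazodone neither did FOXA2 (0.02, adjusted p = 0.966) nor FOXA3 (0.14, adjusted p = 0.74).

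**Figure D3:**
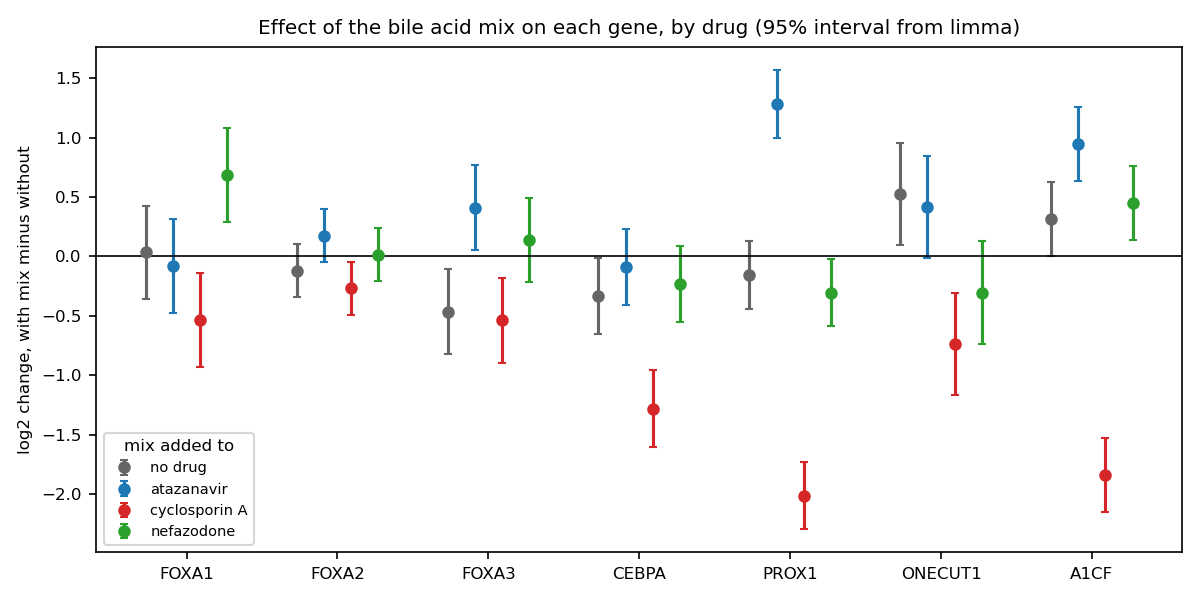
Log2 change of each gene on adding the mix (vertical axis, points with 95% intervals) without a drug and on top of atazanavir, cyclosporin A and nefazodone. With cyclosporin A the points of all 7 genes lie below 0, from -0.27 to -2.01, and with atazanavir PROX1 (1.29) and A1CF (0.95) lie highest.

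The difference between these effects was tested directly. The effect of the mix with atazanavir minus its effect without a drug was called higher for PROX1 and FOXA3 (2 of 7), where 4.54% of all genes were called higher and 6.00% lower. For PROX1 it was 1.44 (SE 0.19, adjusted p = 5.87e-05) and for FOXA3 0.88 (SE 0.24, adjusted p = 0.0256). With cyclosporin A it was called lower for A1CF (-2.16, SE 0.21, adjusted p = 2.14e-07), PROX1 (-1.86, SE 0.19, adjusted p = 4.73e-07), ONECUT1 (-1.27, SE 0.29, adjusted p = 0.00316) and CEBPA (-0.95, SE 0.22, adjusted p = 0.00296), where 14.1% of all genes were called lower and 9.83% higher. With nefazodone none of the 7 passed in limma, where 3.94% of all genes were called higher and 6.30% lower. Of the 7, 3 had an unadjusted p under 0.05, a threshold for which the share of all genes is not given here. A further comparison, added after the data were seen, set the effect of the mix with atazanavir against its effect with cyclosporin A: 6 of 7 genes were called higher with atazanavir, where 14.6% of all genes were called higher and 15.5% lower. The difference was 3.30 for PROX1 (SE 0.19, adjusted p = 1.41e-10), 2.79 for A1CF (SE 0.21, adjusted p = 3.28e-09), 1.19 for CEBPA (SE 0.22, adjusted p = 0.000249), 1.16 for ONECUT1 (SE 0.29, adjusted p = 0.00479), 0.95 for FOXA3 (SE 0.24, adjusted p = 0.00496) and 0.44 for FOXA2 (SE 0.15, adjusted p = 0.0341). These differences share the cultures of the comparisons above.

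Some of these calls were lost when 1 culture was left out, with the value changing little. The FOXA3 difference with atazanavir missed the threshold without any of 7 single cultures, control 1 or 3 (0.81, adjusted p = 0.0651, and 0.85, adjusted p = 0.0618), mix 1 or 2 (0.85, adjusted p = 0.0558, and 0.78, adjusted p = 0.0786), atazanavir 1 or 3 (0.86, adjusted p = 0.0569, and 0.81, adjusted p = 0.0606), or atazanavir plus mix 3 (0.82, adjusted p = 0.0647). The FOXA2 difference between atazanavir and cyclosporin A also missed it without any of 7 single cultures, with values of 0.38 to 0.45: atazanavir 1 or 3, atazanavir plus mix 1 or 3, cyclosporin A 1, and cyclosporin A plus mix 1 or 2 (adjusted p = 0.0523 to 0.0795). It missed it with median centring too (0.40, adjusted p = 0.0813), while the second FOXA2 probe set, 210103_s_at, passed (0.73, SE 0.12, adjusted p = 0.000113).

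Against control, the groups with a drug and the mix were lower for most of the 7 genes. Atazanavir plus mix was lower in 6 of 7 genes, where 11.7% of all genes were called lower and 17.5% higher, with FOXA2 not called on its main probe set. Its ONECUT1 call (-0.67, adjusted p = 0.019) was missed without control culture 1 (-0.53, adjusted p = 0.113), or without culture 1 (-0.59, adjusted p = 0.0812) or 2 (-0.67, adjusted p = 0.0502) of the combination. The second FOXA2 probe set, 210103_s_at, was called higher with atazanavir plus mix (mean 7.36) than in control (7.10). Cyclosporin A plus mix was lower in all 7 genes measured, where 24.7% of all genes were called lower and 27.2% higher, and was the only group in which FOXA2 was called lower than control (-0.45, SE 0.11, adjusted p = 0.00105). Nefazodone plus mix was lower in 6 of 7 and higher for FOXA2 (0.61, adjusted p = 4.52e-05), where 23.3% of all genes were called lower and 26.0% higher. The medians over the 7 genes were -1.16, -1.71 and -1.27.

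Other liver factors and targets moved with the mix in the same groups. Of the 23 targets, 14 lay above the dim range in each culture with cyclosporin A plus mix. On cyclosporin A the mix lowered 15 of the 25 other factors and raised 2, led by NR5A2 (-2.56), NR2F1 (-1.88), ESRRG (-1.68) and ONECUT2 (-1.40), and it lowered 14 of 23 targets and raised none, led by MTTP (-5.07), the lipid transfer protein of lipoprotein assembly, APOC3 (-4.69), the glucose transporter SLC2A2 (-4.30) and the coagulation factor F9 (-3.99). On atazanavir it raised 4 other factors and lowered 1, led by TBX3 (1.28), NR0B2 (0.88) and, downwards, CREB3L3 (-0.85), and it raised 9 targets and lowered none, led by APOA2 (3.24), SLC2A2 (1.93), CYP8B1 (1.35) and TTR (1.19). The latter count was 5 without atazanavir culture 2 or without culture 3 of atazanavir plus mix. On nefazodone it raised 2 and lowered 4 other factors, led by NFIA (-0.66) and TBX3 (0.61), and lowered 4 targets, led by MTTP (-2.67) and CYP3A4 (-1.87), a count of 7 with the replicate block and of 2 with only those groups in the fit.

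Most hepatocyte markers rose with the mix on atazanavir and fell with it on cyclosporin A, as PROX1 and A1CF did. The mix raised 7 of 10 on atazanavir and lowered 9 of 10 on cyclosporin A and 1 of 10 on nefazodone, or none there without culture 1 or culture 2 of nefazodone plus mix or with only those groups in the fit, and 3 with the replicate block. Their summed log2 level was 15.49 to 15.71 with atazanavir plus mix, 13.93 to 14.43 with cyclosporin A plus mix and 15.16 to 15.38 with nefazodone plus mix, and ASGR1 was in the dim range with cyclosporin A plus mix. Bile duct markers rose in 5 and fell in none of 10 on atazanavir, rose in 1 and fell in 4 on cyclosporin A, and rose in 1 and fell in 3 on nefazodone. Their summed level was 12.97 to 13.13 with atazanavir plus mix, 10.36 to 10.43 with cyclosporin A plus mix and 11.56 to 11.78 with nefazodone plus mix. Their mean log2 level was 6.42 to 6.53, 5.54 to 5.61 and 6.14 to 6.24 in that order. The summed level of the stellate cell and fibroblast markers was 10.64 to 10.97, 8.60 to 8.79 and 8.64 to 9.13 in these 3 groups, and that of the neutrophil markers 9.96 to 10.32, 6.67 to 6.85 and 6.58 to 7.03. The GAPDH difference was 0.63 with atazanavir plus mix, 0.49 with cyclosporin A plus mix and 0.59 with nefazodone plus mix. Their part in the changes of the 7 genes was not tested.

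Partners of A1CF in APOB editing did not all follow it. APOB itself changed by -1.53 with atazanavir, by -2.22 with nefazodone and by -3.87 with the mix on cyclosporin A, all past the threshold. RBM47, another RNA-binding cofactor of editing, fell with the mix on cyclosporin A (-1.42, adjusted p = 1.27e-10), where A1CF also fell. Of 6 listed genes, APOB included, 3 were lower and none higher with cyclosporin A alone, where the main A1CF probe set was not called. The mix on atazanavir lowered 2 of the 6 and raised none, while A1CF rose. CELF2 (0.89), SYNCRIP (0.52) and KHSRP (0.47) rose with atazanavir while A1CF fell. APOBEC1, the deaminase, was in the dim range in control HepaRG (3.38) and changed by -0.01 with atazanavir (adjusted p = 0.958).

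Directly compared without the mix, the 3 drugs differed for most of the 7 genes, at doses that differ. Atazanavir was lower than cyclosporin A for 5 of 7, where 19.4% of all genes were called lower and 19.1% higher: A1CF (-1.91), PROX1 (-1.22), CEBPA (-0.87), ONECUT1 (-0.56, adjusted p = 0.0399) and FOXA3 (-0.49, adjusted p = 0.0284). FOXA3 missed the threshold without atazanavir culture 1 or 3 (-0.48, adjusted p = 0.074, and -0.43, adjusted p = 0.102) or cyclosporin A culture 3 (-0.31, adjusted p = 0.191). ONECUT1 missed it without atazanavir culture 1 or 2 (-0.47, adjusted p = 0.145, and -0.52, adjusted p = 0.107) or cyclosporin A culture 2 or 3 (-0.38, adjusted p = 0.217, and -0.62, adjusted p = 0.0512). Against nefazodone, atazanavir was lower for PROX1 (-1.71), A1CF (-0.83), FOXA2 (-0.66) and CEBPA (-0.61) and higher for FOXA1 (1.27), where 19.5% of all genes were called lower and 19.3% higher. The second A1CF probe set, 241547_at, missed the threshold there (-0.55, adjusted p = 0.0871). So did the dim FOXA1 probe set 237086_at (0.11, adjusted p = 0.634). Cyclosporin A was higher than nefazodone for FOXA1 (1.30), A1CF (1.08) and ONECUT1 (0.64) and lower for FOXA2 (-0.78) and PROX1 (-0.49), where 16.9% of all genes were called higher and 18.8% lower. Of these, PROX1 was missed without cyclosporin A culture 2 (-0.36, adjusted p = 0.0651), and ONECUT1 without that culture (0.46, adjusted p = 0.135) or without nefazodone culture 1 or 3 (0.56, adjusted p = 0.0821, and 0.62, adjusted p = 0.0558).

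For each gene the 3 genes with the most similar profile over the 8 HepaRG group means were taken from 6336 genes whose means spanned at least 1 log2 unit. These Pearson correlations describe 8 means that share arrays and normalization, and carry no test. CEBPA was nearest to ADSS1 (0.995), MAT1A (0.986) and MMUT (0.975), and FOXA3 to AHSG (0.991), CFI (0.974) and SERPINF1 (0.974). PROX1 was nearest to SERPINA1 (0.978), ASGR2 (0.973) and ARSD (0.970), A1CF to RBP4 (0.974), AQP4 (0.971) and DIP2C (0.962), and ONECUT1 to ABCD2 (0.983), SOX6 (0.983) and CNTN1 (0.981). FOXA1 was nearest to CLTRN (0.975), SMAP2 (0.970) and BBS10 (0.969), and FOXA2 to PLS1 (0.980), MYO1E (0.977) and RAPGEF5 (0.972).

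In mouse liver, Onecut1 alone of the 8 genes was called after bile duct ligation, lower in ligated liver, where 19.8% of all genes were called lower and 19.8% higher. A count of 1 in 8 is near that background. The median over the 8 genes was -0.07 against -0.05 over all genes, and the groups overlapped in all 8. The share of all genes with overlapping groups is not given here, so this overlap is only a description.

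**Figure D4:**
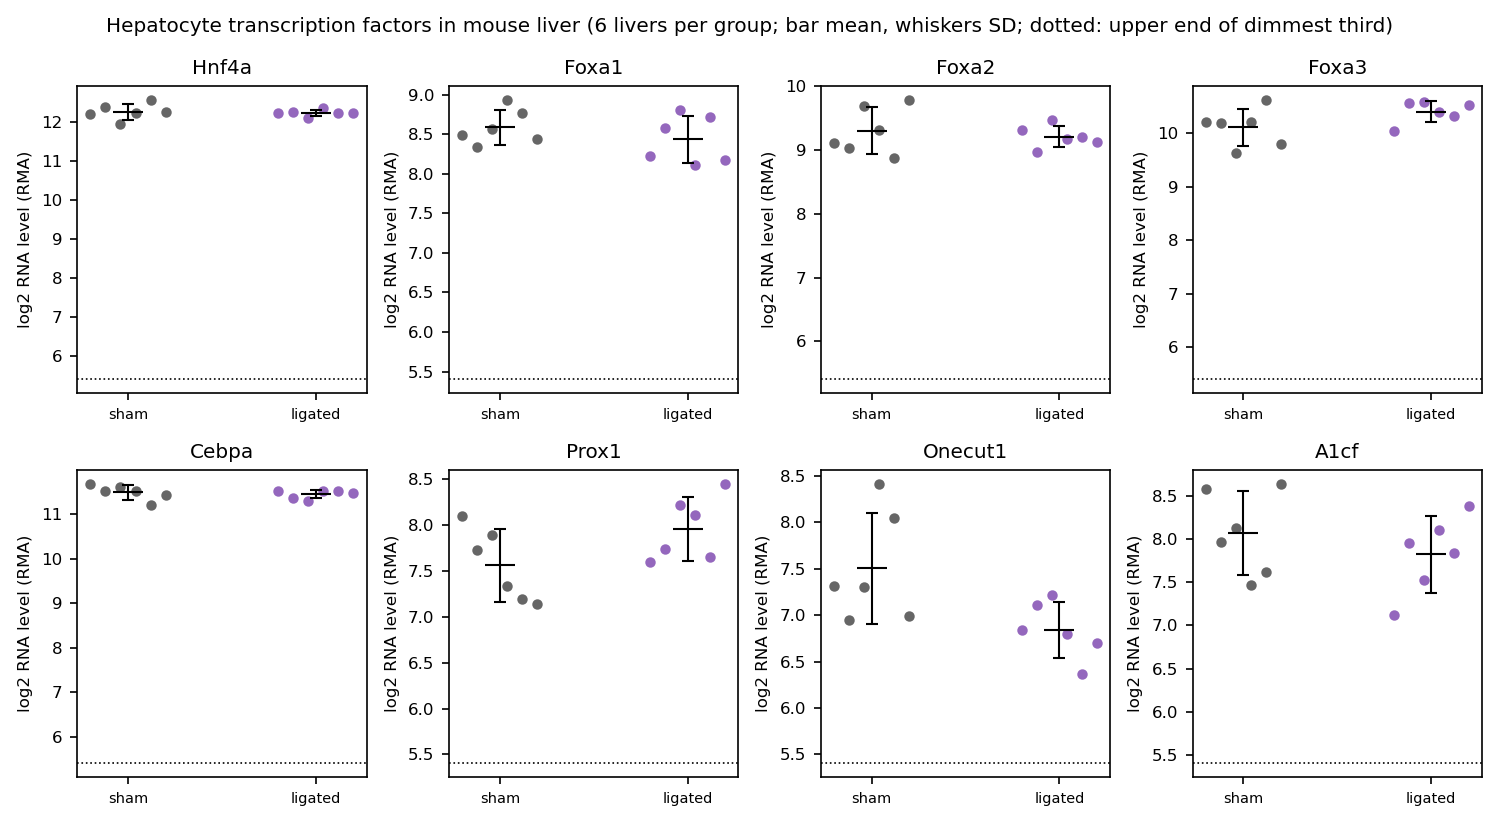
RMA log2 level (vertical axis) of the main probe set of each gene in sham and ligated mouse liver (horizontal axis), with points for 6 livers a group, bars for means, whiskers for SD and a dotted line at 5.40, the upper end of the dim range. The groups overlap in every panel, and in Onecut1 2 sham livers, at 8.41 and 8.05, lie above all ligated livers and the other sham livers.

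Onecut1 stood at 6.37 to 7.22 (median 6.81) in 6 ligated livers and at 6.95 to 8.41 (median 7.31) in 6 sham livers. Sham livers 4 and 5 stood highest, sham livers 1 and 3, at 7.32 and 7.30, also lay above every ligated liver, and sham livers 2 and 6 fell among the ligated ones. The log2 change was -0.67 (1.59-fold lower, SE 0.23, adjusted p = 0.0388), and the second probe set, 1421447_at, was lower by the same call (-0.90, SE 0.32, adjusted p = 0.0417). The call was lost without sham liver 4 (-0.48, adjusted p = 0.0674) or 5 (-0.56, adjusted p = 0.082), and without ligated liver 1 (-0.67, adjusted p = 0.0566), 4 (-0.66, adjusted p = 0.0573), 5 (-0.57, adjusted p = 0.0872) or 6 (-0.64, adjusted p = 0.07). Without the arrays ligated 1 and sham 2 together, it was -0.78 (adjusted p = 0.0298).

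Hnf4a, measured here in mice, stood at 12.10 to 12.34 (median 12.22) in ligated and at 11.93 to 12.55 (median 12.23) in sham liver, a change of -0.03 (SE 0.09, adjusted p = 0.814). Its other 3 probe sets changed by 0.19, -0.05 and 0.00, none past the threshold. Cebpa stood at 11.31 to 11.53 (median 11.50) in ligated and 11.20 to 11.68 (median 11.53) in sham liver (-0.04, SE 0.08, adjusted p = 0.705). For both genes the ligated livers lay within the sham range.

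Foxa3 stood at 10.05 to 10.58 (median 10.46) in ligated and 9.64 to 10.62 (median 10.20) in sham liver (0.29, SE 0.15, adjusted p = 0.13), and passed the threshold without sham liver 5 (0.40, adjusted p = 0.0316). Foxa1 changed by -0.15 (SE 0.14, adjusted p = 0.401) and Foxa2 by -0.09 (SE 0.15, adjusted p = 0.644). Prox1 stood at 7.60 to 8.45 (median 7.92) in ligated and 7.14 to 8.11 (median 7.53) in sham liver (0.40, SE 0.19, adjusted p = 0.112), and passed without sham liver 1 (0.51, adjusted p = 0.0455), while its other 2 probe sets pointed the other way (-0.07 and -0.09). A1cf stood at 7.12 to 8.38 in ligated and 7.46 to 8.64 in sham liver (-0.24, SE 0.23, adjusted p = 0.424), and its partner Apobec1 rose by 0.63 (adjusted p = 0.0169).

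Of 28 other liver factors measured in mice, 9 fell and 3 rose with ligation, with a median of -0.08. They were led by Cebpd (0.88), an acute-phase leucine zipper factor, the xenobiotic receptor Nr1i2 (0.59), Hlf (-0.57) and the fatty acid receptor Ppara (-0.55). Of 18 targets, Cyp7a1 (1.33) rose and Cyp8b1 (-2.36) and Mttp (-0.46) fell, and 5 were called without ligated liver 1 or without ligated liver 4. Of 8 hepatocyte markers, Hpx (0.32) rose and none fell, while 4 of 8 bile duct markers rose, Prom1 (2.45), Krt23 (2.41), Sox9 (1.44) and Cftr (1.28). The summed log2 level of the bile duct markers was 10.10 to 11.34 in ligated and 9.54 to 10.09 in sham liver, that of the hepatocyte markers 17.39 to 17.43 and 17.33 to 17.38. Of 9 macrophage markers 6 rose and 1 fell (summed level 12.76 to 13.76 in ligated and 11.86 to 12.47 in sham liver), and of 8 stellate cell and fibroblast markers 4 rose and none fell (median summed level 12.90 and 12.16). Of 7 sinusoidal endothelial markers 5 fell and 1 rose (10.96 to 11.48 and 11.37 to 11.72). The part of these markers in the Onecut1 value was not tested.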

How the data were processed

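RNA of 24 HepaRG cultures and 12 mouse livers was measured on Affymetrix 3′ arrays. The deposited values are log2 levels that the authors made with RMA, per the submitters' processing notes. They run from 1.47 to 14.37 in HepaRG and from 2.13 to 15.30 in mouse and were used without further normalization. RMA corrects background, normalizes quantiles and summarises probes, which compresses differences at low levels. Arrays have no read depth, and their number, 3 or 6 a group, limits the precision.

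All probe sets with a single gene symbol in the platform annotation (41091 of 54675 human and 34945 of 45101 mouse) were fitted with limma 3.58.1 in R 4.3.3, by lmFit and eBayes, with 1 model for the 8 HepaRG groups (16 residual degrees of freedom) and 1 for mice (10). P-values were adjusted by Benjamini-Hochberg over all these probe sets in each comparison, and called under 0.05; intervals are limma's at 95%. A gene is counted by its main probe set, the one with the highest mean over all arrays. The fit was tested on simulated data. P-values set each difference against the spread between cultures or mice. The labels do not say whether cultures with the same number belong to the same batch.

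The members and lists were chosen with earlier results of these data known. Of each list, up to 4 genes with the largest change past the threshold are named, and genes outside that rule were named after their values were seen. The numbers of the samples paired them, with every correlation of same-numbered deviations over 0.1, in 2 of 14 comparisons, the mix and nefazodone each against control (0.143 to 0.206 and 0.113 to 0.142). Alternatives were a replicate block, leaving out each array, quantile normalization, median centring, 1 probe set per gene, genes of the dim range left out, eBayes with trend and robust, only the groups compared in the fit, and the other probe sets.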

Additional observations from a re-analysis of the deposited data

Results flagged for a closer look

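The effect of the bile acid mix differed between drug backgrounds, by a test of the difference itself, for these genes. Against the mix without a drug, atazanavir gave a difference of 1.44 for PROX1 and 0.88 for FOXA3, and cyclosporin A gave -2.16 for A1CF, -1.86 for PROX1, -1.27 for ONECUT1 and -0.95 for CEBPA. Between atazanavir and cyclosporin A, the effect of the mix differed by 3.30 for PROX1, 2.79 for A1CF, 1.19 for CEBPA, 1.16 for ONECUT1, 0.95 for FOXA3 and 0.44 for FOXA2, a comparison that was added after the data were seen. In 28 sets of 6 livers, 1 for each mouse probe set and group, no single liver stood apart by Dixon's criterion.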

How the results depend on the processing

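The 18 comparisons gave 74 calls for these genes on their main probe sets. Of these, 61 were kept under every setting run on the main probe set, 13 were lost under some, and none turned direction. The cause of each loss was not tested. The count of called genes in ligated against sham liver went from 1 to 0 with the replicate block (Onecut1 adjusted p = 0.0677), with median centring (0.0682) and with eBayes with trend and robust (0.0501), and ran from 0 to 2 with 1 liver left out. For the mix on nefazodone the count went from 1 to 2 with the replicate block, median centring and 1 probe set per gene. It did so too with the dimmest 1 in 3 probe sets left out and with trend and robust. It went to 0 with only the groups compared in the fit, and ran from 0 to 2 with 1 culture left out. Atazanavir against cyclosporin A gave 3 with median centring and 3 to 5 with 1 culture left out. Cyclosporin A against nefazodone gave 3 to 5, the difference with atazanavir 1 to 2, and that with nefazodone 0 to 1 with 1 culture left out, and the latter gave 1 with only its groups in the fit. In the 2 comparisons where numbers paired the samples, the block changed no call of these genes. Elsewhere, pairing brought ONECUT1 with cyclosporin A to an adjusted p of 0.0441 and the main A1CF probe set for the mix on nefazodone to 0.00528.

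No value that turned sign passed the threshold after it. With median centring Hnf4a was 0.029 and Cebpa 0.016, and with quantile normalization FOXA1 with the mix was -0.021 and FOXA2 for the mix on nefazodone -0.014. With 1 array left out, Hnf4a ran from -0.095 to 0.030, Foxa2 from -0.18 to 0.0040, FOXA2 with atazanavir from -0.16 to 0.016, FOXA1 with the mix from -0.0084 to 0.12, FOXA1 for the mix on atazanavir from -0.20 to 0.068, CEBPA there from -0.15 to 0.0040, and FOXA2 for the mix on nefazodone from -0.081 to 0.081. Of the other probe sets, Hnf4a gave 0.19 and 0.0019, Prox1 -0.074 and -0.092, and FOXA1 -0.36 with the mix and 0.019 for the mix on atazanavir. FOXA2 probe set 210103_s_at gave 0.098 with the mix, 0.020 with cyclosporin A and -0.077 for the mix on nefazodone. FOXA2 probe set 214312_at gave 0.050, 0.23 and -0.057 there, and also 0.28 for cyclosporin A plus mix against control, 0.049 for the mix on cyclosporin A and 0.050 for cyclosporin A against nefazodone. PROX1 gave 0.0065 and 0.069 with the mix on 2 brighter probe sets, and on 242119_at 0.024 for the mix on nefazodone, 0.038 for the difference with cyclosporin A and 0.051 for cyclosporin A against nefazodone. Signal over background limits ONECUT1 and FOXA1, whose means fell into the dim range in some groups.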
